A study of Mus musculus with 4 samples.

Results

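The genes described here are 9 mouse genes that act as inhibitors or nuclear effectors of extracellular signal-regulated kinase (ERK) signaling: Spry1, Spry2, Spry4, Spred1, Spred2, Dusp4, Dusp6, Etv4 and Etv5. They were chosen by their names, with earlier results of these data known. The deposited RNA sequencing table holds 14533 genes, and all 9 have a row in it. The comparisons with all genes below therefore describe the 9 and do not test for an excess. A gene was tested where its mean over serum ESCs or over 2i ESCs reached 50 normalized counts, which all 9 did among 13005 genes in all. Dusp4 did so only narrowly, with means of 50.5 and 48.6. ERK is the last kinase of a cascade that runs from receptors such as those for fibroblast growth factor (FGF) through RAS, RAF and MEK. Its activity induces its own inhibitors. Sprouty and Spred proteins act upstream, at the level of RAS and RAF, whereas the dual-specificity phosphatases Dusp4 and Dusp6 remove the activating phosphates from ERK itself. Etv4 and Etv5 are ETS transcription factors of the PEA3 subfamily, and their transcripts are widely used as readouts of FGF and ERK signaling. In mouse embryonic stem cells (ESCs), FGF4 made by the cells themselves drives this cascade.

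RNA from 2 libraries of serum ESCs was compared with RNA from 2 libraries of 2i ESCs. Both groups had been adapted to their medium for over 20 days and both media contained LIF. Serum ESCs were grown with fetal calf serum, and 2i ESCs in serum-free Ndiff 227 medium with PD0325901, which inhibits MEK and so the step just before ERK, and CHIR99021, which inhibits GSK3. The effects of serum, of the basal medium and of each inhibitor therefore cannot be told apart in this comparison. Cells were sorted in late G1-phase per the sample labels, while the series description names early G1-phase. The labels name neither a cell line nor how the replicates were separated. The paper describes its RNA comparison as made in late G1-phase with 2 biological replicates, but not how these were separated. The p-values therefore measure only the spread between these libraries. In bulk RNA, fewer expressing cells and less RNA per cell cannot be told apart.

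Depth ranged from 18939401 to 26570098 whole reads a library. Protein-coding genes took 46.9% to 76.3% of the reads, with the lowest share in serum replicate 1. Of 8 ESC markers, 7 had a row, and the lowest value among them was 128 normalized counts (Utf1 in 2i replicate 2). Markers of other cell types were also detected. The summed normalized counts of the 5 primitive endoderm markers with a row, of 8 listed, were 75.0 and 156 in serum ESCs and 256 and 337 in 2i ESCs, and Cubn was at 0 in 2i replicate 2. Trophectoderm markers (5 of 7 with a row) summed to 472 and 666 in serum ESCs and to 2652 and 4117 in 2i ESCs, where Elf5 in replicate 1 (2215) and Krt8 in replicate 2 (3614) made up most of the sum. Fibroblast markers (3 of 6 with a row) summed to 235 and 271 in serum ESCs and to 201 and 289 in 2i ESCs. The primitive endoderm and trophectoderm sums did not overlap between the groups, but their single markers were less uniform. Gata4, Gata6 and Sox17 were higher in both 2i libraries, while Pdgfra and Cubn overlapped. Among the trophectoderm markers only Krt18 was higher in both 2i libraries, while Eomes, Elf5, Gata3 and Krt8 overlapped. The part of such cells in the results below was not tested.

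Most of the 9 genes had a higher mean in serum ESCs, but with limma, the main test, none passed after adjustment over all genes. For Spry4, Etv4, Spred1, Dusp6 and Spry2, 5 of the 9, both serum libraries lay above both 2i libraries, against 20.5% of all genes tested. In the opposite direction, 0 of the 9 genes had groups that did not overlap, against 19.4% of all genes. The median log2 fold change of serum over 2i was 1.20 over the 9 genes and 0.0047 over all genes tested, and 7 of the 9 were above 0. All log2 fold changes are on the log2(normalized count + 1) scale. A call required at least a 2-fold difference with an adjusted p-value below 0.05. With limma 0 of the 9 genes were called in either direction, where 0% of all genes were called as higher in serum ESCs and 0.0154% as higher in 2i ESCs. When the p-value was left unadjusted, limma put 4 of the 9 past the same limits as higher in serum ESCs (background 2.97%) and 0 as higher in 2i ESCs (background 3.0%). The count test DESeq2 called Spry4 alone as higher in serum ESCs (background 0.561%) and 0 of the 9 as higher in 2i ESCs (background 1.37%). With its p-value unadjusted, DESeq2 put 4 of the 9 past the limits as higher in serum ESCs and 0 as higher in 2i ESCs. Of all 13005 genes, it put 593 and 987 past them in these directions. The study also used DESeq2, but does not say whether its p-value was adjusted. The other count test, edgeR, called 0 of the 9 (background 0% in either direction). Before adjustment it put 4 past the limits as higher in serum ESCs (background 2.21%) and 0 as higher in 2i ESCs (background 3.81%).

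**Figure D1:**
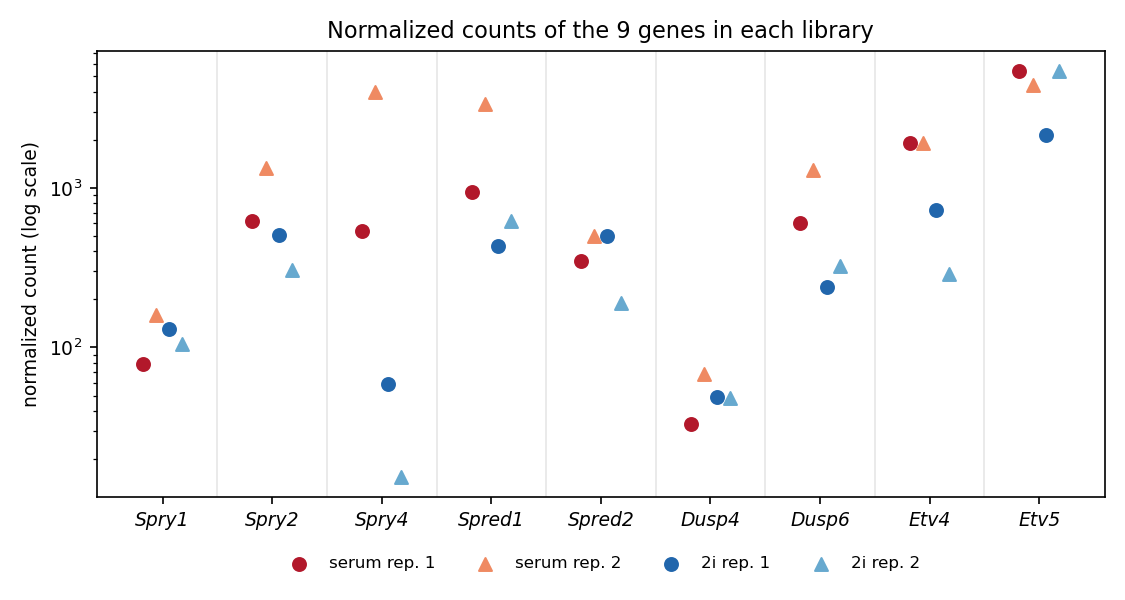
Normalized counts (log axis) of the 9 genes in each of the 4 libraries, with 1 point per library, serum in red tones and 2i in blue tones, circles for replicate 1 and triangles for replicate 2. Spry4 spans from 15.5 in 2i replicate 2 to 3973 in serum replicate 2, while the 4 points of Spry1 and of Dusp4 lie close together and interleave.

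The Sprouty genes encode membrane-associated proteins that dampen RAS and RAF activation by growth factor receptors. Spry4 (ENSMUSG00000024427, chromosome 18, minus strand) had the largest difference of the 9 genes. Serum replicates 1 and 2 had 536 and 3973 normalized counts, against 59.2 and 15.5 for the 2i replicates in the same order, which is kept for all genes below. The lower serum library stood 9.06-fold above the higher 2i library, although the serum replicates differed from each other 7.41-fold and the 2i replicates 3.81-fold. The log2 fold change was 5.53 (SE 1.07, 95% interval 2.94 to 8.12; limma, adjusted p-value 0.753), which ranked 11 from the top among the 13005 genes. DESeq2 gave 5.87 (SE 1.08, adjusted p-value 3.12e-05). Without serum replicate 2 the limma value was 4.09, and without serum replicate 1 it was 6.98.

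Spry2 (ENSMUSG00000022114, chromosome 14, 106291166 to 106296036, transcribed from the minus strand) had 623 and 1335 normalized counts in serum ESCs and 508 and 307 in 2i ESCs. Both serum libraries were higher, but serum replicate 1 exceeded 2i replicate 1 only 1.23-fold, less than the 2.14-fold difference between the serum replicates. The log2 fold change was 1.20 (SE 0.56, 95% interval -0.14 to 2.55; limma, adjusted p-value 0.753). Spry1 (ENSMUSG00000037211, chromosome 3, 37538869 to 37543520, transcribed from the plus strand) had 79.0 and 160 in serum ESCs and 130 and 105 in 2i ESCs. The 2i values lay between the serum values, and the log2 fold change was -0.05 (SE 0.66, 95% interval -1.64 to 1.54; limma, adjusted p-value 0.990). The interval reaches beyond a 2-fold difference both ways, so that such a difference was not detectable here. The fourth family member, Spry3, is not analysed here.

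Because counts grow with transcript length, the family was also compared per kb of merged exon. The 3 Sprouty genes together had 443 and 1561 normalized counts per kb in serum ESCs and 301 and 187 in 2i ESCs. Spry2 held the largest share in both 2i libraries, with 80.9% and 78.9% of this sum. In serum ESCs its share was 67.5% and 41.0%. The share of Spry4 was 26.4% and 55.5% in serum ESCs against 4.29% and 1.81% in 2i ESCs. Spry4 thus went from the lowest of the 3 transcripts in both 2i libraries to the second highest in serum replicate 1 and the highest in serum replicate 2. Spry1 held 6.14% and 3.53% in serum ESCs and 14.8% and 19.3% in 2i ESCs, although its own level per kb overlapped between the groups.

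The Spred genes encode relatives of Sprouty that recruit the RAS GTPase-activating protein neurofibromin, the product of Nf1, to the membrane. Spred1 (ENSMUSG00000027351, chromosome 2, 116947110 to 117008015, transcribed from the plus strand) had 947 and 3366 normalized counts in serum ESCs and 434 and 618 in 2i ESCs. Serum replicate 2 was set apart from the other libraries, and serum replicate 1 exceeded the higher 2i library 1.53-fold. The log2 fold change was 1.78 (SE 0.67, 95% interval 0.17 to 3.40; limma, adjusted p-value 0.753), and 0.87 without serum replicate 2. Spred2 (ENSMUSG00000045671, chromosome 11, 19824378 to 19924029, transcribed from the plus strand) had 349 and 502 in serum ESCs and 498 and 191 in 2i ESCs. Only 2i replicate 2 was low, and the groups overlapped (log2 fold change 0.44, SE 0.60, 95% interval -1.01 to 1.89; limma, adjusted p-value 0.872). Per kb of exon, Spred1 held 63.8% and 81.1% of the Spred family sum in serum ESCs and 36.1% and 66.0% in 2i ESCs. These shares overlapped between the groups. Spred3, the third member, was below the minimum for testing, with 22.01 and 42.8 normalized counts in serum ESCs and 32.2 and 33.0 in 2i ESCs. Nf1 itself had 473 and 1003 in serum ESCs and 664 and 645 in 2i ESCs, so that its 2i values lay between its serum values.

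Dusp6 and Dusp4 differ in where they act and in their values here. Dusp6, a cytoplasmic phosphatase specific to ERK, lies on chromosome 10 (ENSMUSG00000019960, 98725865 to 98730122, plus strand). It had 603 and 1288 normalized counts in serum ESCs and 240 and 325 in 2i ESCs. Both serum libraries were above both 2i libraries, the closest pair by 1.86-fold, and the log2 fold change was 1.66 (SE 0.54, 95% interval 0.36 to 2.95; limma, adjusted p-value 0.753). Dusp4, a nuclear phosphatase of ERK and related kinases, lies on chromosome 8 (ENSMUSG00000031530, 35870351 to 35882948, plus strand). It had the lowest level per kb of exon of the 9 genes in both serum libraries. Its counts were low throughout, with 33.0 and 68.0 normalized counts in serum ESCs and 48.8 and 48.5 in 2i ESCs. Its 2i libraries were nearly equal and lay between the serum libraries. The log2 fold change was -0.03 (SE 0.96, 95% interval -2.35 to 2.28; limma, adjusted p-value 0.994), the widest interval but that of Spry4 among the 9 genes.

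Related phosphatases were arranged otherwise. The cytoplasmic ERK phosphatases Dusp7 and Dusp9 overlapped between the groups, and Dusp9 had 1224 and 2312 normalized counts in serum ESCs and 2575 and 983 in 2i ESCs. Per kb of exon, Dusp9 was the most abundant of these 3 in every library, with 63.6% to 86.2% of their sum. Dusp6 held 30.5% and 34.8% of it in serum ESCs and 7.81% and 22.9% in 2i ESCs. The nuclear phosphatase Dusp1 was higher in both 2i libraries, with 182 and 297 normalized counts in serum ESCs and 476 and 482 in 2i ESCs (log2 fold change -1.04 with SE 0.49; adjusted p-value by limma 0.753). Dusp1, Dusp4 and Dusp5 together had 126 and 205 normalized counts per kb in serum ESCs and 221 and 245 in 2i ESCs, of which Dusp1 made up 53.5% and 53.8% in serum ESCs and 79.8% and 72.9% in 2i ESCs.

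**Figure D2:**
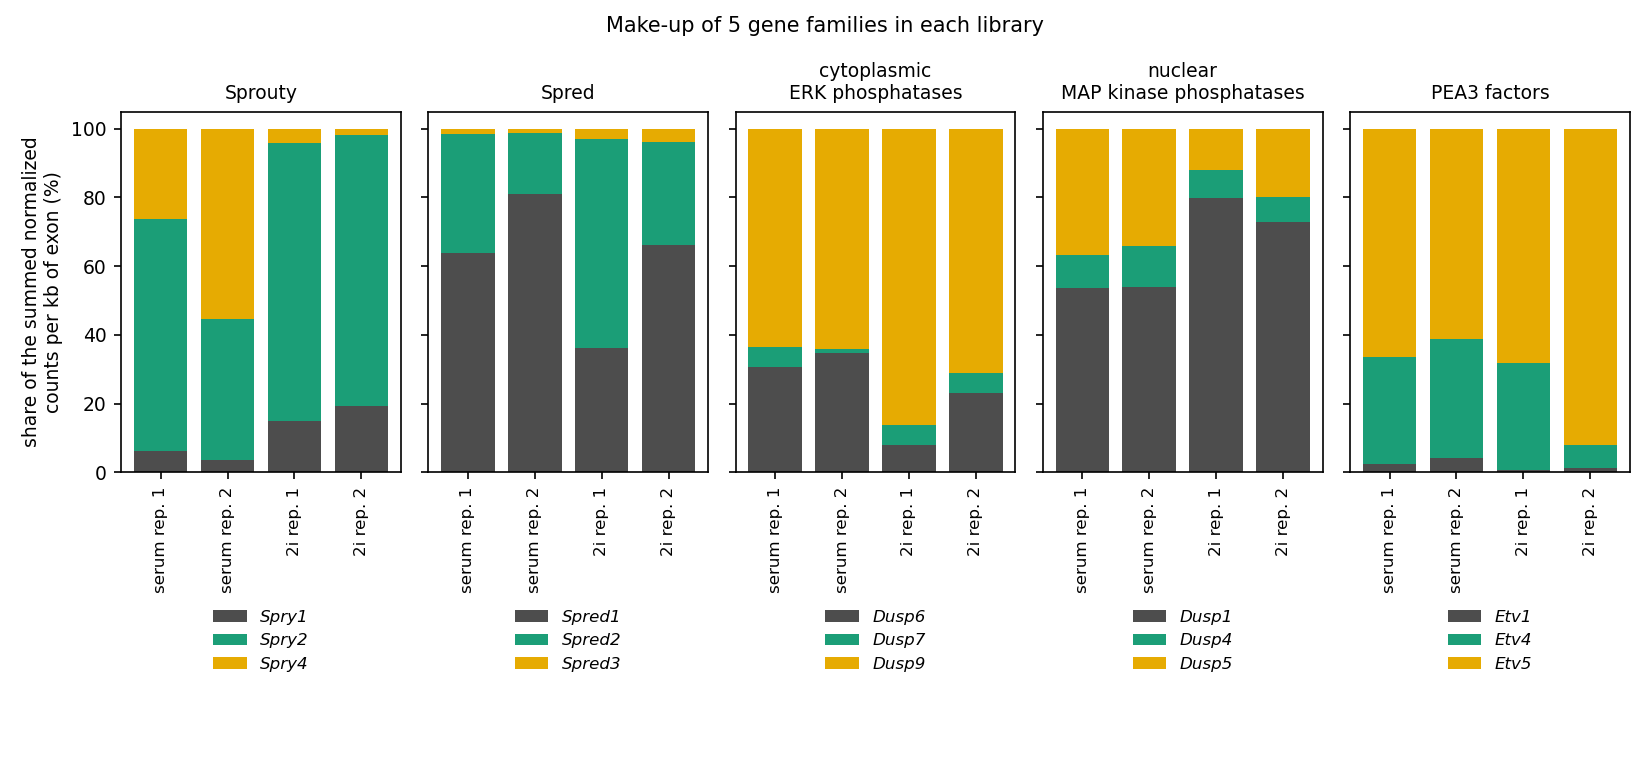
Share (%) of each gene in the summed normalized counts per kb of merged exon of its family, with 1 stacked bar per library and 1 panel per family. In the Sprouty panel Spry4 takes 26.4% and 55.5% of the serum bars but 4.29% and 1.81% of the 2i bars, and in the PEA3 panel Etv5 takes the largest share in each library.

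Etv5 was the most abundant of the 9 transcripts per kb of exon in every library, with 1313 and 1071 normalized counts per kb in serum ESCs and 519 and 1314 in 2i ESCs. Etv4 followed in serum replicate 1 with 617, but in serum replicate 2 its 611 was below Spry4 (866) and Spry2 (640). Etv4 (ENSMUSG00000017724, chromosome 11, 101631056 to 101646685, transcribed from the minus strand) had 1915 and 1897 normalized counts in serum ESCs and 729 and 290 in 2i ESCs. Its serum libraries agreed within 1.01-fold, the smallest spread between the serum replicates among the 9 genes, and stood at least 2.60-fold above 2i replicate 1. The log2 fold change was 2.05 (SE 0.55, 95% interval 0.71 to 3.39; limma, adjusted p-value 0.753), with 1.39 without 2i replicate 2 and 2.71 without 2i replicate 1. Etv5 (ENSMUSG00000013089, chromosome 16, 22381382 to 22439792, transcribed from the minus strand) had 5389 and 4392 in serum ESCs and 2129 and 5390 in 2i ESCs. Its highest value was in 2i replicate 2 and its lowest in 2i replicate 1, so that the 2i replicates differed 2.53-fold while the groups overlapped (log2 fold change 0.52, SE 0.58, 95% interval -0.89 to 1.93; limma, adjusted p-value 0.840). In 2i replicate 2 these close relatives parted, with Etv4 at its lowest and Etv5 at its highest value.

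The third PEA3 factor, Etv1, had the largest fold change of serum over 2i among the 11 other ETS factors listed and tested. It had 261 and 414 normalized counts in serum ESCs and 32.2 and 113 in 2i ESCs (log2 fold change 2.42 with SE 0.76; adjusted p-value by limma 0.753). Per kb of exon, however, Etv1 held only 0.720% to 4.01% of the PEA3 sum. Etv5 held 66.5% and 61.1% of it in serum ESCs and 68.4% and 92.1% in 2i ESCs, and Etv4 held 31.2% and 34.9% in serum ESCs and 30.9% and 6.55% in 2i ESCs. The PEA3 sum itself was 1975 and 1752 normalized counts per kb in serum ESCs and 759 and 1426 in 2i ESCs, so that both serum libraries were above both 2i libraries although Etv5 alone overlapped.

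**Figure D3:**
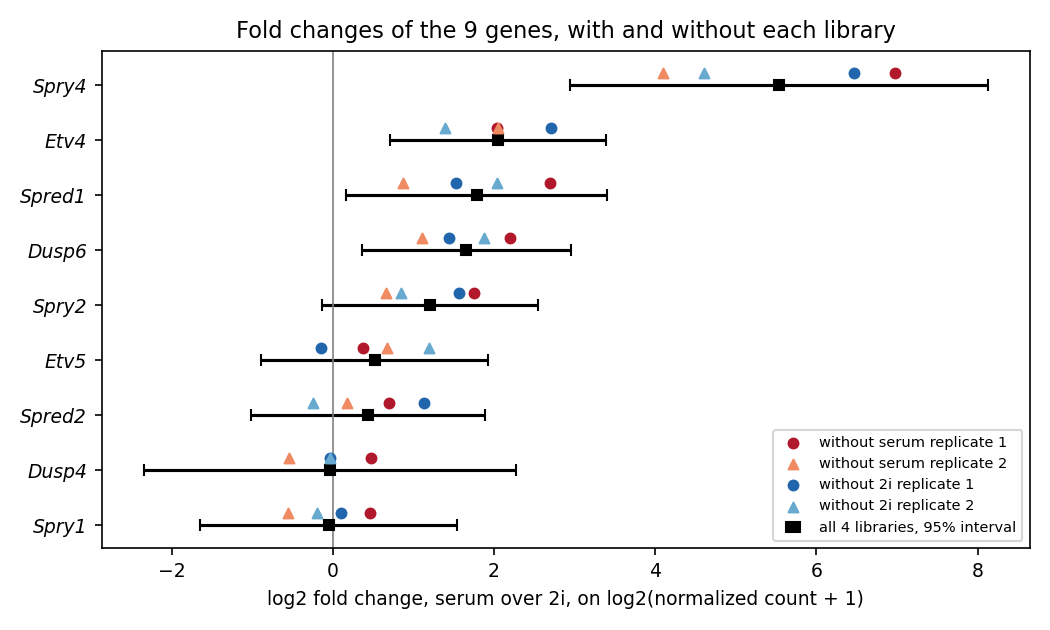
Log2 fold change of serum over 2i for each of the 9 genes. Black squares with bars give the value over all 4 libraries and its 95% interval from limma, and coloured points give the value when the named library is left out. The intervals of Spry4, Etv4, Spred1 and Dusp6 lie above 0, those of the other 5 genes cross it, and the points of Spry1, Dusp4, Etv5 and Spred2 fall on both sides of 0.

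Sequence upstream of the transcription start was examined for the letters of 2 kinds of site. Whether either kind links these genes to ERK was not tested. ETS factors bind around CGGAAG, and the ERK-sensitive repressor Cic binds around TGAATG. The letters TGAATG were chosen after the windows had been read. Both strands were searched, and the motifs do not overlap each other. Windows of 250 bases before the start site came from RefSeq (GRCm38.p6) and were placed on NCBIM37, which is mm9, by exact match. They covered 7 windows of 6 of the genes (Spry1, Spry2, Spred1, Spred2, Dusp6 and Etv5), with 2 start sites for Etv5. The sequences of Dusp6, Spred1 and Spry2 are shown as those of genes whose groups did not overlap, and the inner Etv5 window as the one with most matches. They are printed on the strand of the gene, with CGGAAG and TGAATG or their reverse complements in capitals. The windows are chr10:98725615-98725864 (plus strand) for Dusp6, chr2:116946557-116946806 (plus strand) for Spred1, chr14:106296037-106296286 (minus strand) for Spry2 and chr16:22438442-22438691 (minus strand) for Etv5. None of the 4 contains an annotated exon, and the start site of the Etv5 window lies 1351 bases inside the annotated start of the gene.
Dusp6: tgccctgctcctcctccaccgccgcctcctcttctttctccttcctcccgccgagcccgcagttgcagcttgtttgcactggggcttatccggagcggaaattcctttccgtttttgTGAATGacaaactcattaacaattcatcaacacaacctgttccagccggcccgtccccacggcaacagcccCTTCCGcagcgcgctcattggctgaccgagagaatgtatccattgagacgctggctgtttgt
Spred1: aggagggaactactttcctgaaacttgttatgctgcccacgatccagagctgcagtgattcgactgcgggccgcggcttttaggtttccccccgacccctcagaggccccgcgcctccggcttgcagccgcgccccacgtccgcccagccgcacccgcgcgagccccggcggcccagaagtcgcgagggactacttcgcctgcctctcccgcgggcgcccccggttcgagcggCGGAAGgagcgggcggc
Spry2: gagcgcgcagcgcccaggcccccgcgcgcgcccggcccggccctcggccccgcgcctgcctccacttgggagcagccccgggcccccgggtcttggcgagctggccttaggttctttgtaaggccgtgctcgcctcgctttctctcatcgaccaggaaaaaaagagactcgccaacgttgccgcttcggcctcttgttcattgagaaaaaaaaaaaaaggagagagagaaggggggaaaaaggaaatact
Etv5: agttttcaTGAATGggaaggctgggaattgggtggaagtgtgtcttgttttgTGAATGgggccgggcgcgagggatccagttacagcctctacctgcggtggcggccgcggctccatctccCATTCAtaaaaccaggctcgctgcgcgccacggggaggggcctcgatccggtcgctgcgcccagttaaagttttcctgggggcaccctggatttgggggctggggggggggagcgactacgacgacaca

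The ETS letters occurred in 3 of the 7 windows, against 13.6% of 32851 RefSeq promoter windows of the same length. Their first bases were at -17 in Spred1, -62 in Dusp6 and -43 in Spred2, counted from the start site. The Spred2 start site lies 67 bases inside the annotated start of the gene, so that this match falls within an annotated exon. The Spred1 start site lies at -303 from the annotated start of its gene. The Cic letters occurred in 2 of the 7 windows, and 10.9% of all windows hold them. Because these letters were chosen after the same windows had been read, this comparison cannot measure an excess. In Dusp6 they were at -133, and in the inner Etv5 window they were found 3 times, at -242, -198 and -129. The longer forms CCGGAAGT, TGAATGAA and TGAATGGA had no match in the 7 windows (2.88% and, for either Cic form, 2.07% of all windows hold them). An exact form of the serum response element and the cyclic AMP response element TGACGTCA also had none (0.0609% and 1.55% of all windows). Other forms of the serum response element were not searched, so its absence is not shown. The matches found describe letters only. Among genes whose groups did not overlap, the Dusp6 and Spred1 windows held a match and the Spry2 window held none. Among genes whose groups overlapped, the Spred2 and inner Etv5 windows held a match. The Spry1 and outer Etv5 windows held none.

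The rest of the pathway was compared by role. Of 60 genes tested outside the 9, both serum libraries were higher for 17 and both 2i libraries for 10, and the median log2 fold change was 0.17. Over all genes tested these shares were 20.5% and 19.4%, which also stand as background for the counts by list below. With limma 0 of the 60 were called in either direction, while before adjustment 4 passed both limits as higher in serum ESCs (Erf, Etv1, Elk4 and Myc) and 1 as higher in 2i ESCs (Epha4). DESeq2 called 1 of the 60, Myc, as higher in serum ESCs (background 0.561%). Without adjustment DESeq2 put 4 of them past the limits as higher in serum ESCs and 1 as higher in 2i ESCs. Of all 13005 genes tested, 593 and 987 were past these limits in the same directions. With edgeR 0 were called, and 3 were past the limits before adjustment as higher in serum ESCs (background 2.21%).

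In the lists of FGF signaling and of RAS to ERK, no gene was called by limma, DESeq2 or edgeR. Of 11 FGF ligand, receptor and adaptor genes tested, 7 had a fold change above 0, 3 were higher in both serum libraries and 2 in both 2i libraries (median 0.25). Fgf4, the ligand, was among the latter, with 1809 and 1296 normalized counts in serum ESCs and 2720 and 2402 in 2i ESCs (log2 fold change -0.74 with SE 0.44; adjusted p-value by limma 0.753). Fgfr1, which encodes an FGF receptor, had 559 and 667 in serum ESCs and 1079 and 435 in 2i ESCs, and overlapped. At the ends of this list were Fgfr3 (log2 fold change 1.19) and Frs3 (-0.998). The 13 genes tested of the RAS to ERK list included Rps6ka1 and Rps6ka3, which encode kinases downstream of ERK. The list had a median of 0.15, and 2 genes were apart in each direction, with Rps6ka1 among those higher in 2i ESCs. The lowest was Ksr1 (log2 fold change -0.22). Map2k1, which encodes the MEK1 target of PD0325901, had 1778 and 2073 in serum ESCs and 1903 and 2127 in 2i ESCs, and overlapped.

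Among 18 other negative regulators tested, 0 were called by limma, DESeq2 or edgeR, and the median was 0.08. Both serum libraries were higher for 6 of them (20.5% of all genes) and both 2i libraries for 3 (19.4% of all genes). The list ran from Dusp14 (log2 fold change -1.42) to Erf (1.18). Erf, an ETS repressor that ERK phosphorylates and sends out of the nucleus, had 2492 and 3015 normalized counts in serum ESCs and 1400 and 1043 in 2i ESCs (SE 0.44; limma, adjusted p-value 0.753). Cic, the repressor named above, had 432 and 677 in serum ESCs and 982 and 388 in 2i ESCs, and overlapped. Of 11 other ETS factors, 3 were higher in both serum libraries (Etv1, Elk4 and Gabpa) and 1 in both 2i libraries (Elf1, log2 fold change -0.85), with a median of 0.19. Elk4, which binds DNA together with serum response factor, had 468 and 416 in serum ESCs and 170 and 78.6 in 2i ESCs (log2 fold change 1.92 with SE 0.57; adjusted p-value by limma 0.753).

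Other genes known to respond to MEK and ERK did not form a uniform group. Of 7 tested, 3 were higher in both serum libraries (Myc, Phlda1 and Ccnd1) and 2 in both 2i libraries (Epha4 and Ier3), with a median of 0.53. Myc, the growth regulator, had 131 and 657 normalized counts in serum ESCs and 7.27 and 4.85 in 2i ESCs (log2 fold change 5.41 with SE 1.17; adjusted p-value by limma 0.753). As for Spry4, serum replicate 2 was the highest library and both 2i libraries were far lower. Egr1, an immediate early gene, was at the other end, with 10.01 and 248 in serum ESCs and 112 and 397 in 2i ESCs (log2 fold change -2.02 with SE 1.49; adjusted p-value by limma 0.765), and overlapped.

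**Figure D4:**
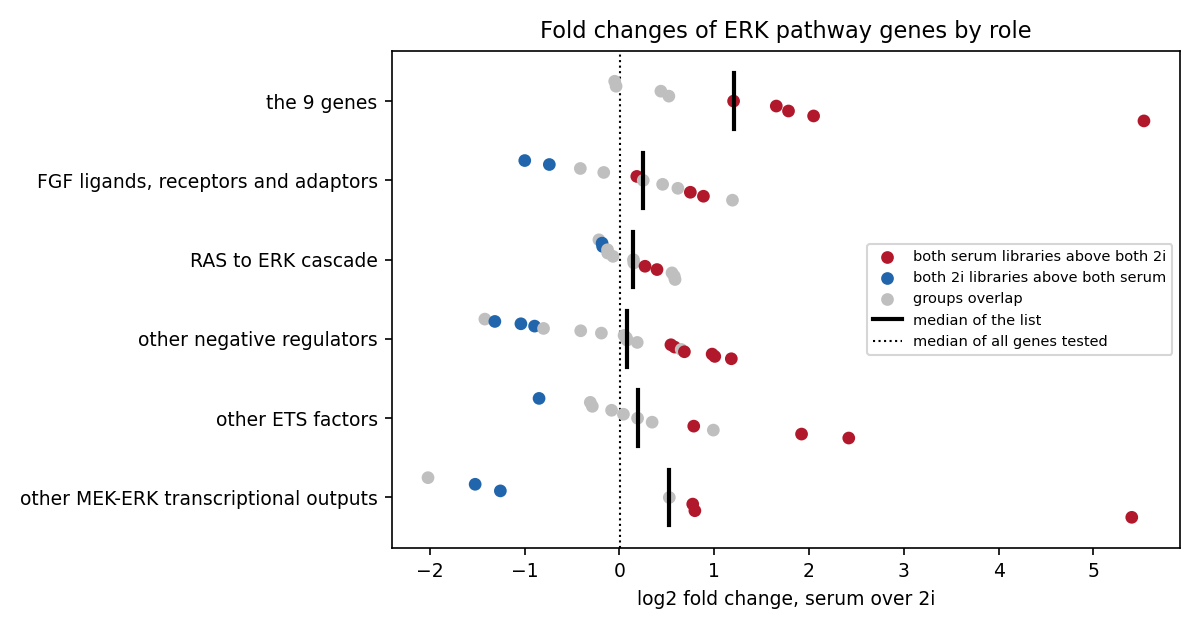
Log2 fold change of serum over 2i for each tested gene of 6 lists. Red points are genes with both serum libraries above both 2i libraries, blue points the reverse, and grey points genes whose groups overlap. Black bars mark list medians (1.20 for the 9 genes, 0.08 to 0.53 for the other lists) and the dotted line the median of all genes tested (0.0047).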

How the data were processed

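RNA was sequenced from sorted serum and 2i ESCs, 2 libraries each. The authors depleted ribosomal RNA, primed fragments at random, aligned 43-base single reads to mm9 with Bowtie, estimated transcript abundance with MMSeq and normalized with DESeq2. What they deposited is a signal: normalized counts, made by dividing the gene counts of a library by its size factor. Tool versions and strand settings are not given in the sources used here. Within every library 100% of the values fell within 0.01 of a whole number of reads after division by the smallest step, and these reads entered the count tests.

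Gene symbols and positions came from GENCODE vM1 (NCBIM37), which held 14462 of the 14533 genes. Each of the 9 genes had at least 99.95% of its 43-base words in no other protein-coding gene, and none shared exon bases with another annotated gene. The 13005 genes whose serum or 2i mean reached 50 were tested in R 4.3.3 by limma 3.58.1, using log2 of the normalized count plus 1, a variance trend, Benjamini-Hochberg adjustment and no replicate term. Calls required a 2-fold difference with an adjusted p-value below 0.05. With 2 libraries against 2, an exact permutation test cannot reach 0.05 and was not used. Levels per kb divide normalized counts by merged exon length. Intervals are 95% intervals from limma's moderated standard errors.

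Alternatives were pseudocounts of 0.5 and 5, other filters and scalings, leaving out each library, a replicate block, a fit without the variance trend, edgeR 4.0.16, DESeq2 1.42.0 and a correction for GC content and length (mgcv 1.9.3). The 9 genes, the pathway lists and the marker lists were chosen with earlier results of these data known, so no list was tested. All genes of the 9 were named, and in the other lists the genes at the ends, those past the test and others of known role. The 5 genes most like the 9 were chosen by the distance between centred log2 profiles. Values of some genes of the pathway are not reported here.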

Additional observations from a re-analysis of the deposited data

How the results depend on the processing

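The direction of Spry4, Etv4, Spred1, Dusp6 and Spry2 was the same under the 16 alternatives, and their log2 fold changes ranged from 4.09 to 6.98 for Spry4, 1.39 to 2.71 for Etv4, 0.87 to 2.70 for Spred1, 1.11 to 2.20 for Dusp6 and 0.66 to 1.75 for Spry2. Calls over all genes depended on the model. With DESeq2 on whole reads 1 of the 9 genes was called (Spry4), and with the replicate block 2 were (Spry4, adjusted p-value 1.84e-05, and Etv4, adjusted p-value 0.0423, limma), where the block called 44 genes (0.338%) as higher in serum ESCs and 159 (1.22%) as higher in 2i ESCs. With the block after GC content and length correction 0 of the 9 were called (Etv4, adjusted p-value 0.201, limma). The cause was not tested. The numbers 1 and 2 are shared by both groups in the labels. The replicate differences of the groups correlated across genes with r = 0.480, but with 2 pairs the samples are not shown to be paired. Between libraries, r was 0.628 for the 2i replicates and 0.808 for the serum replicates. For serum and 2i libraries of the same number it was 0.782 (replicate 1) and 0.815 (replicate 2). The 2i replicates were thus less alike than these libraries from different media. Taken without sign, replicate differences had a log2 median of 0.760 in 2i ESCs and 0.527 in serum ESCs, against 0.552 for the serum over 2i fold changes. Among the MEK and ERK response genes, Myc was called under DESeq2 and under the block. The genes with overlapping groups changed sign. Leaving out each library in turn gave -0.56 to 0.46 for Spry1, -0.55 to 0.48 for Dusp4, -0.15 to 1.19 for Etv5 and -0.25 to 1.13 for Spred2. Dusp4 was 0.011 with edgeR and 0.026 with DESeq2, and the GC content and length correction, with or without the block, put Spry1 at 0.25 and Dusp4 at 0.24. The number of the 9 genes with both serum values above both 2i values was 5 under each scaling and correction, and 5 to 8 when a library was left out, with 8 without serum replicate 1 (34.96% of all genes), 5 without serum replicate 2 (28.8%), 6 without 2i replicate 1 (38.01%) and 6 without 2i replicate 2 (39.2%). The share of all genes was 17.1% to 20.6% under the scalings and the GC content and length correction. The median over the 9 genes ranged from 0.67 to 1.75 without a library. Upper quartile scaling moved the median of all genes to -0.12 and that of the 9 to 1.08. A mean of at least 200 removed Spry1 and Dusp4. With 2 libraries a group, differences under the spread of the replicates were not detectable.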

Other observations

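The genes outside the 9 whose centred log2 values over the 4 libraries were closest to the mean profile of the 9 were Trim59, Ect2, Psmd7, Hnrnph1 and Atf1, at Euclidean distances of 0.072 to 0.143 log2 units. That mean profile ran from 0.22 (serum replicate 1) and 1.24 (serum replicate 2) to -0.54 (2i replicate 1) and -0.91 (2i replicate 2). Ect2, which encodes an exchange factor needed for cytokinesis, had 2279 and 4838 normalized counts in serum ESCs and 1316 and 1109 in 2i ESCs. Psmd7, a subunit of the proteasome lid, had 1943 and 4028 in serum ESCs and 1041 and 852 in 2i ESCs. The 9 genes themselves lay farther from their own mean profile, at distances of 0.358 to 4.42, so that the mean describes no single member closely. This likeness rests on 4 libraries and is a description.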
